A study of Mus musculus with 9 samples.

Results

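The genes described here are 10 genes of the cellular defence against oxidants in bone marrow-derived dendritic cells (BMDCs): Hmox1, Nqo1, Sod2, Slc7a11, Gclc, Gclm, Gsr, Txnrd1, Srxn1 and Prdx1. They were taken by name from a list written with earlier results of these data known, so counts of them are descriptions. All 10 were found among the 57238 entries of the table and among the 15028 genes that were tested. In TDE-treated against CTR BMDCs, 4 of them were higher, 1 was lower and 5 did not pass the test, beside 7.57% of all tested genes that were higher and 9.34% that were lower. Hmox1 rose 3.51-fold, Sod2 2.72-fold, Slc7a11 1.81-fold and Gsr 1.56-fold, whereas Srxn1 was 1.53-fold lower. The call of Slc7a11 was lost under 11 of 17 alternative analyses and that of Srxn1 under 4 of 17. Between NE-treated and CTR BMDCs, none of the 10 passed the test, nor did any other gene (0%).

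All BMDCs were wildtype C57BL/6 cells grown from bone marrow with 20 ng/ml GM-CSF. The labels give 6 days of culture and the study's methods a longer one. According to these methods, the medium of BMDCs held beta-mercaptoethanol, a thiol reductant, which all groups shared. CTR BMDCs received no exosomes, TDE-treated BMDCs received tumor cell-derived exosomes for 24 h, and NE-treated BMDCs received exosomes of normal cells for 24 h. The study's text describes normal cell-derived exosomes from NIH 3T3 cells, a mouse fibroblast line, and the labels of the sequenced samples do not name the line. Nor do they name the tumor line. Each group had 3 libraries, and since nothing states that these came from separate cultures or mice, the p-values measure only the spread between these libraries, which may be technical.

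Many of these genes are targets of NRF2 (Nfe2l2), a transcription factor that the adaptor KEAP1 holds in check through a cullin ubiquitin ligase. Oxidants and electrophiles modify KEAP1, and NRF2 then binds antioxidant response elements together with small MAF proteins. The defence has a glutathione arm, in which imported cystine is reduced to cysteine and built into glutathione, and a thioredoxin arm, in which peroxiredoxins reduce peroxides and are recharged by thioredoxin. Dendritic cells and other phagocytes make superoxide with an NADPH oxidase, and several of the genes also respond to inflammatory signals through NF-kappa-B or to heme through BACH1.

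The libraries held 17469782 to 21092943 estimated reads on genes, so that 3 reads corresponded to 0.142 to 0.172 CPM, reads of a gene relative to the library's total. CPM values are scaled by the trimmed mean of M values (TMM). CTR replicate 1 stood apart from the other 8 libraries: its TMM factor was 0.7508, its mitochondrial share of reads was 1.02% against 2.52% to 2.91%, and its mean correlation with its own group was 0.8873. For the 10 genes and the pathway lists, values against CTR are therefore given with and without it. The labelled cell type was checked against its markers. Itgax (CD11c) lay between 107 and 178 CPM, Flt3 between 11.6 and 16 CPM and Zbtb46 between 13.7 and 19.9 CPM over all libraries, while Cd209a was at 0 in the 3 TDE-treated libraries and at most 0.163 CPM in the others. Macrophage, neutrophil and eosinophil transcripts were also present in all groups, with values given further on. In bulk RNA, fewer cells of a type and less RNA per cell cannot be told apart.

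**Figure D1:**
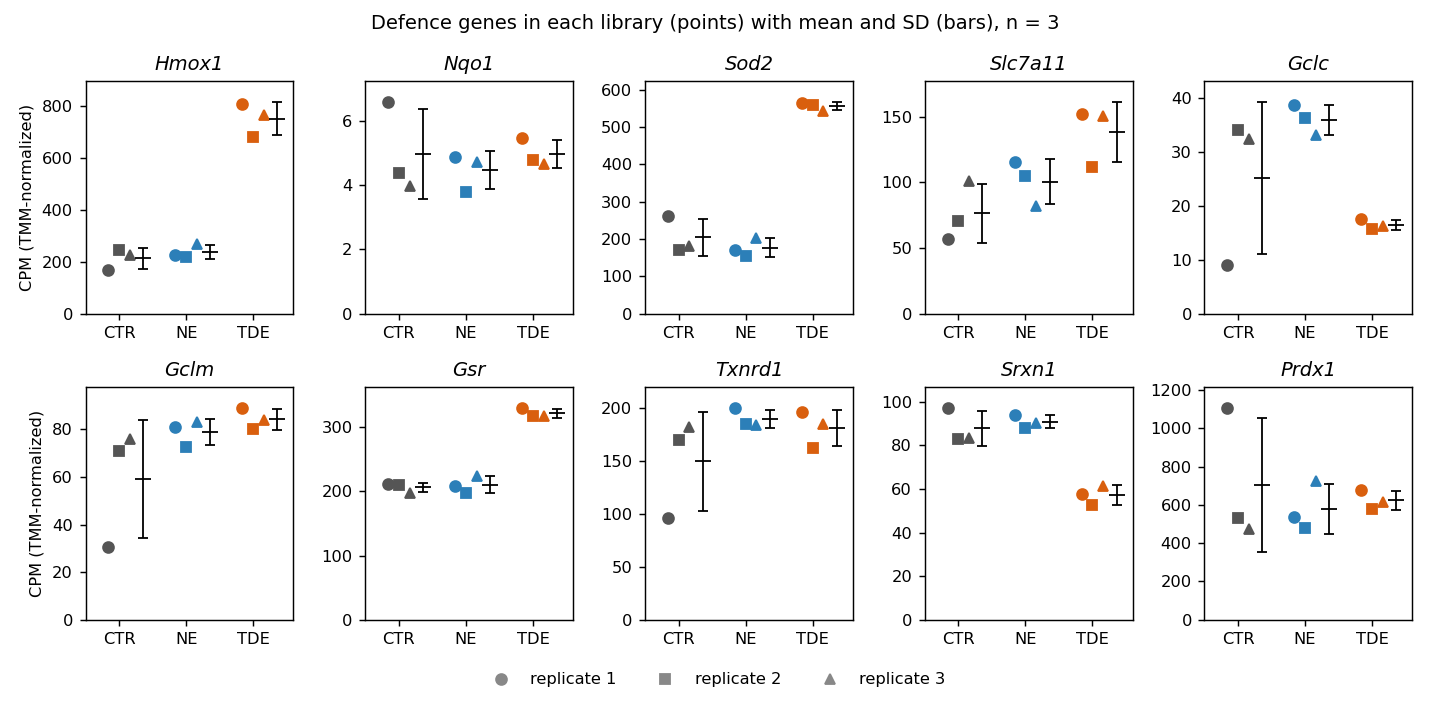
CPM of each of the 10 genes (vertical axes, linear from 0) in the 3 libraries of the CTR, TDE-treated and NE-treated groups, with marker shapes for the replicate numbers and bars for the mean and SD. Hmox1, Sod2 and Gsr lay higher and Srxn1 lower in all TDE-treated libraries than in any other library, and CTR replicate 1 lay far from its group for Gclc, Gclm, Txnrd1 and Prdx1.

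Promoter sequence was available from the RefSeq table (GRCm38.p6) for 7 of the 10 genes in 9 windows, each of 300 bases from 250 before to 50 after a transcription start. Hmox1, Gclc and Gsr had no window. Both strands were searched for the antioxidant response element core TGACNNNGC, for the AP-1 element TGANTCA and for the kappa-B consensus. The variant TGAGNNNGC, called core with G here, was searched after the first matches had been seen. The stretches with matches upstream of the start are shown because they show where NRF2, AP-1 and NF-kappa-B family letters lie beside genes with different behavior in these cells. They are read on the gene's strand, 5′ to 3′, and capitals mark the matched letters.
Gclm (chr3:122245398-122245456, plus strand, core on the opposite strand): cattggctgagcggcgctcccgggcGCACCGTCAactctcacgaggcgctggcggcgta
Slc7a11 (chr3:50443677-50443735, minus strand, core with G on the opposite strand): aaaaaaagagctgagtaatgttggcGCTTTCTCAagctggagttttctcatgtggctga
Txnrd1 (chr10:82859089-82859147, plus strand, core on the opposite strand): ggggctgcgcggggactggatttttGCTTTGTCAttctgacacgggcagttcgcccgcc
Srxn1 (chr2:152105341-152105512, plus strand, core with G, AP-1, then AP-1 within core with G): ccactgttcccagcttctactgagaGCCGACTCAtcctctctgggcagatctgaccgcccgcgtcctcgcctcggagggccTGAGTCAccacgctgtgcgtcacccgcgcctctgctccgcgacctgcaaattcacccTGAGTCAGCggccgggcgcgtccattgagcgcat
Prdx1 (chr4:116685349-116685393, plus strand, AP-1): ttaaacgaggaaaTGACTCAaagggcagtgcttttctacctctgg
Prdx1 (chr4:116685404-116685499, plus strand, kappa-B, then core overlapping AP-1): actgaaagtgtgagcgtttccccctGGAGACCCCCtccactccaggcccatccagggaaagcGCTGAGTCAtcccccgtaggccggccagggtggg
Sod2 (chr17:13007731-13007790, plus strand, kappa-B on both strands): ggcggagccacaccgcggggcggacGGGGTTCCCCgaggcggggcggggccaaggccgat

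None of these stretches holds an exon base in GENCODE vM21, and those of Txnrd1 and Sod2 lie within the span of the gene itself. The kappa-B match of Sod2 began 83 bases before the start. The 2 AP-1 matches of Srxn1 began 102 and 45 bases before the start, and the nearer one also reads as a core with G. In Prdx1 the core began 133 bases and the AP-1 match 131 bases before the start, so they share letters. The kappa-B match and the core of Prdx1, and the first core with G of Srxn1, lie on the opposite strand. Such matches are common: of 32851 RefSeq promoter windows, 12.4% held the core, 7.81% the AP-1 element, 4.51% the kappa-B consensus and 17.6% the core with G. Srxn1 also held a core and Prdx1 a core with G after the start, which are not shown. The window of Nqo1 and the other windows of Txnrd1 held none of them. Sequence outside the windows was not searched, so a gene without a match may hold such elements further away. A match is a description of letters, and binding was not measured.

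Hmox1 encodes heme oxygenase 1, which splits heme into biliverdin, carbon monoxide and iron. The gene lies at chr8:75093621-75100589 on the plus strand (GENCODE vM21, GRCm38, as for all gene positions below). Its level was 167.9, 246 and 227.2 CPM in the CTR libraries, 227.6, 218 and 268.4 CPM in the NE-treated libraries, and 805.7, 681.8 and 765.8 CPM in the TDE-treated libraries. All TDE-treated libraries lay above all others, and CTR and NE-treated libraries overlapped. The log2 fold change was 1.81 (SE 0.183, edgeR's quasi-likelihood test, Benjamini-Hochberg adjusted p = 0.00062) against CTR and 1.66 (SE 0.182, adjusted p = 0.000883) against NE. It was 1.66 (SE 0.115, adjusted p = 1.24e-05) against CTR when CTR replicate 1 was left out. By log2 fold change against CTR, Hmox1 ranked number 301 of 15028 tested genes.

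Nqo1 encodes a quinone reductase that is widely used as a readout of NRF2 activity, and lies at chr8:107388225-107403206 on the minus strand. It was the lowest of the 10 genes, with 6.591, 4.38 and 3.986 CPM in CTR, 4.883, 3.795 and 4.724 CPM in NE-treated and 5.487, 4.804 and 4.65 CPM in TDE-treated libraries. The 3 groups overlapped. TDE-treated against CTR BMDCs differed by a log2 fold change of 0.00 (SE 0.231, approximate 95% interval -0.451 to 0.454, adjusted p = 0.997). The interval ends well below the log2 fold change of Hmox1 (1.81). It was 0.24, also not called, when CTR replicate 1 was left out.

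Sod2 encodes the manganese superoxide dismutase of mitochondria, which turns superoxide into hydrogen peroxide, and lies at chr17:13006846-13040063 on the plus strand. Its level was 261.9, 170.3 and 180.6 CPM in CTR, 171.7, 153.3 and 203.6 CPM in NE-treated, and 563.7, 560 and 543.9 CPM in TDE-treated libraries. The TDE-treated libraries lay close together and above all the others. Sod2 rose by a log2 fold change of 1.44 (SE 0.197, edgeR adjusted p = 0.00248) against CTR and 1.66 (SE 0.198, adjusted p = 0.00127) against NE. Leaving out CTR replicate 1, the highest CTR library for this gene, gave 1.65 (SE 0.117, adjusted p = 1.41e-05) against CTR.

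The glutathione arm begins with Slc7a11, which encodes xCT, the cystine-importing subunit of an antiporter, and lies at chr3:49892526-50443614 on the minus strand. It stood at 57.04, 70.89 and 101.3 CPM in CTR, 115.4, 104.7 and 81.7 CPM in NE-treated, and 152.3, 111.7 and 150.5 CPM in TDE-treated libraries. All TDE-treated libraries lay above all CTR libraries, but the lowest of them lay below the highest NE-treated library. The log2 fold change against CTR was 0.85 (SE 0.244, edgeR adjusted p = 0.0461), just inside the threshold, and this call was lost under 11 of 17 alternative analyses (adjusted p up to 0.153, counted with no limit on the fold change), among them those without CTR replicate 2 and without any NE-treated or TDE-treated library. Against NE the change was 0.46 (SE 0.242, approximate 95% interval -0.0169 to 0.933, adjusted p = 0.286). It was called against NE under 2 of 17 alternatives. These were the edgeR fit to only the NE-treated and TDE-treated libraries (0.46, SE 0.154, adjusted p = 0.0433) and limma voom (0.37, SE 0.123, adjusted p = 0.0227). Leaving out CTR replicate 1 gave 0.67 (SE 0.204, adjusted p = 0.0313) against CTR.

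Gclc and Gclm encode the catalytic and the modifier subunit of glutamate-cysteine ligase, the enzyme of the rate-limiting step of glutathione synthesis. Gclc (chr9:77754535-77794485, plus strand) was at 8.936, 34 and 32.44 CPM in CTR, 38.59, 36.17 and 33.02 CPM in NE-treated, and 17.46, 15.67 and 16.25 CPM in TDE-treated libraries. CTR replicate 1 was the lowest of all 9 libraries, so that the CTR libraries fell on both sides of the TDE-treated ones, whereas all NE-treated libraries lay above all TDE-treated libraries. With all libraries the log2 fold change did not pass the test against CTR (-0.61, SE 0.413, edgeR adjusted p = 0.312) or against NE (-1.13, SE 0.416, adjusted p = 0.122). Without CTR replicate 1, Gclc fell by 1.02 on the log2 scale against CTR (SE 0.0924, adjusted p = 5.36e-05) and by 1.13 against NE (SE 0.0847, adjusted p = 1.23e-05). Gclc was also called against NE in a fit to only the NE-treated and TDE-treated libraries, which uses no CTR library (-1.12, adjusted p = 4.33e-05).

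Gclm (chr3:122245557-122270732, plus strand) stood at 30.55, 70.8 and 76.08 CPM in CTR, 80.99, 72.66 and 82.89 CPM in NE-treated, and 88.78, 79.98 and 83.9 CPM in TDE-treated libraries. All TDE-treated libraries lay above all CTR libraries, by little for CTR replicates 2 and 3, and overlapped with NE-treated ones. The log2 fold change was 0.51 (SE 0.298, edgeR adjusted p = 0.251) against CTR, 0.10 (SE 0.297, adjusted p = 0.914) against NE, and 0.19 (SE 0.0875, adjusted p = 0.132) against CTR without CTR replicate 1. The exons of Gclm share 296 bases with Gm17494 on the opposite strand and 244 bases with the pseudogene Gm6061 on the same strand, and how reads there were assigned is not stated. The other 9 genes share no exon base with another annotated gene.

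Since the subunits act as a pair, the ratio of their reads per base of gene was computed within each library, a quantity chosen after the values were seen. It was 0.0856, 0.141 and 0.125 in CTR, 0.139, 0.146 and 0.117 in NE-treated, and 0.0575, 0.0573 and 0.0567 in TDE-treated libraries. Every TDE-treated library, with a mean of 0.0572 ± 0.000453 (SD, n = 3), lay below every CTR library (0.117 ± 0.0283, SD, n = 3) and every NE-treated library (0.134 ± 0.0153, SD, n = 3). An exact permutation test gave p = 0.1 for TDE-treated against CTR, 0.1 for TDE-treated against NE-treated and 0.6 for NE-treated against CTR libraries. With 3 against 3 libraries this test cannot reach the threshold of 0.05, and the ratio was chosen on these values, so no conclusion is drawn from it. Because the ratio is taken within a library, it does not depend on the scaling between libraries. Its size rests on the deposited gene lengths, whereas the order of the libraries does not.

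**Figure D2:**
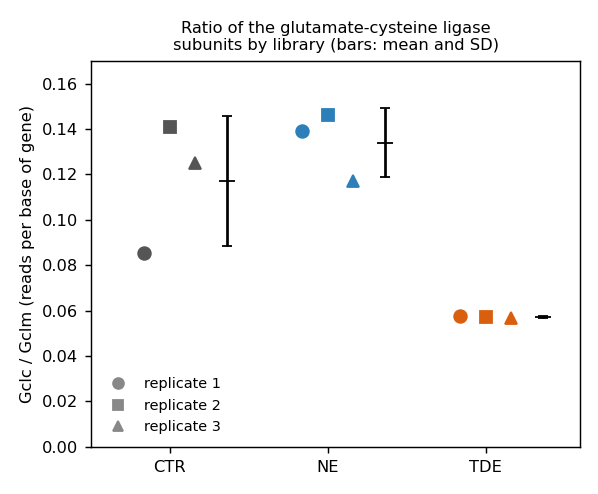
Ratio of Gclc to Gclm (vertical axis, reads per base of gene, linear from 0) in each library of the CTR, TDE-treated and NE-treated groups, with bars for the mean and SD. The TDE-treated libraries lie together at 0.0567 to 0.0575, below the lowest other library at 0.0856, which is CTR replicate 1.

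Gsr encodes glutathione reductase, which returns oxidized glutathione to its reduced form with NADPH, and lies at chr8:33652523-33698163 on the plus strand. Its level was 211.2, 209.5 and 197.8 CPM in CTR, 208.4, 198 and 224.1 CPM in NE-treated, and 329.2, 318 and 317.2 CPM in TDE-treated libraries. The groups' libraries were close to each other and the TDE-treated ones lay above all others. Gsr rose by a log2 fold change of 0.64 (SE 0.115, edgeR adjusted p = 0.00785) against CTR and 0.61 (SE 0.115, adjusted p = 0.01) against NE. It was 0.65 (SE 0.0768, adjusted p = 0.000262) against CTR in the absence of CTR replicate 1. With no limit on the fold change, the call against CTR was kept under all 17 alternatives, with adjusted p up to 0.048, just inside the threshold. The call against NE was lost under 8 of 17 (adjusted p up to 0.0639), among them those without NE replicate 1 or 2 and without any TDE-treated library.

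In the thioredoxin arm, Txnrd1 encodes the cytosolic thioredoxin reductase and lies at chr10:82833951-82897712 on the plus strand. It was at 96.21, 169.9 and 181.5 CPM in CTR, 199.3, 184.8 and 183.3 CPM in NE-treated, and 195.7, 162.2 and 184.7 CPM in TDE-treated libraries, so that only CTR replicate 1 lay far from the rest. The log2 fold change of TDE-treated BMDCs was 0.28 (SE 0.228, edgeR adjusted p = 0.402) against CTR and -0.06 (SE 0.228, adjusted p = 0.925) against NE. It was 0.03 (SE 0.0924, adjusted p = 0.822) against CTR once CTR replicate 1 was left out.

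Srxn1 encodes sulfiredoxin, which restores peroxiredoxins that have been overoxidized, and lies at chr2:152105516-152111376 on the plus strand. It stood at 97.03, 82.81 and 83.6 CPM in CTR, 94.1, 88.22 and 90.45 CPM in NE-treated, and 57.75, 52.68 and 61.38 CPM in TDE-treated libraries. All TDE-treated libraries lay below all others. Srxn1 fell by 0.62 on the log2 scale against CTR (SE 0.123, edgeR adjusted p = 0.0121) and by 0.67 against NE (SE 0.123, adjusted p = 0.00921), and by 0.55 against CTR without CTR replicate 1 (SE 0.0825, adjusted p = 0.00103). The call was lost under 4 of 17 alternatives against CTR (adjusted p up to 0.071) and under 2 of 17 against NE (adjusted p up to 0.058), among them those without TDE replicate 1 or TDE replicate 2. Hmox1 and Srxn1, both known as NRF2 targets, moved in opposite directions in the main test, and the part of NRF2 in either change was not tested.

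Prdx1 encodes an abundant cytosolic peroxiredoxin and lies at chr4:116685544-116700822 on the plus strand. Its level was 1104, 533 and 474.4 CPM in CTR, 536.3, 477.3 and 724.3 CPM in NE-treated, and 678.8, 577.4 and 615.2 CPM in TDE-treated libraries. The groups overlapped, and CTR replicate 1 was the highest of the 9 libraries. The log2 fold change against CTR was -0.17 (SE 0.323, edgeR adjusted p = 0.711) and turned to 0.30 (SE 0.162, adjusted p = 0.191) without that library. Against NE it was 0.11 (SE 0.323, adjusted p = 0.911).

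**Figure D3:**
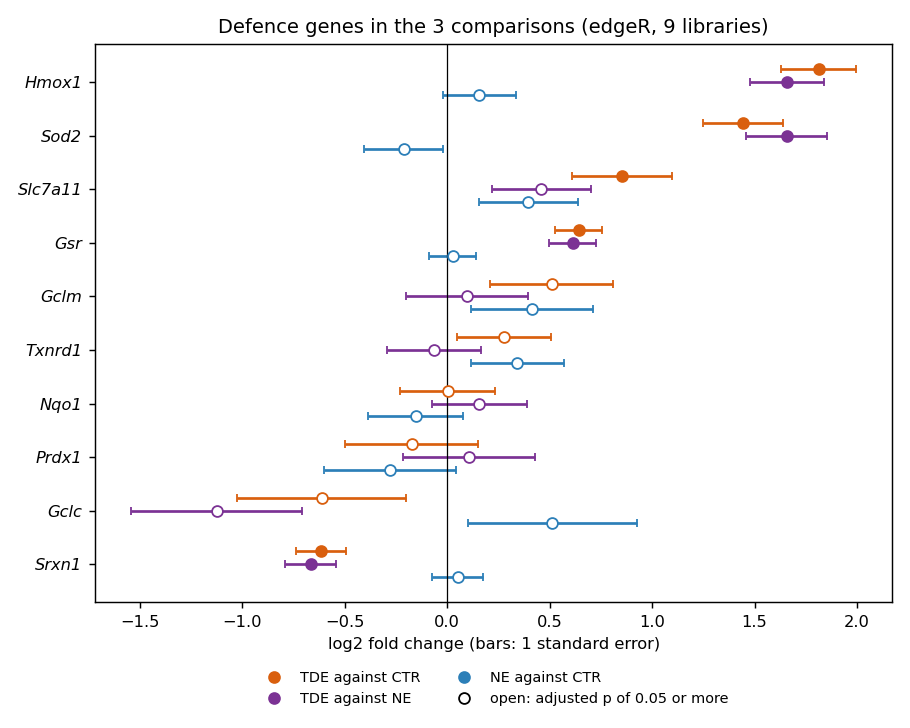
Log2 fold changes of the 10 genes (horizontal axis) with bars of 1 SE in TDE-treated against CTR, TDE-treated against NE-treated and NE-treated against CTR BMDCs, where filled points passed the adjusted p threshold of 0.05. Hmox1, Sod2 and Gsr are filled to the right and Srxn1 to the left in both comparisons of TDE-treated BMDCs, and no point of NE-treated against CTR BMDCs is filled.

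The median log2 fold change of the 10 genes in TDE-treated against CTR BMDCs was 0.393, beside -0.055 for all 15028 tested genes. Since the 10 genes were chosen with earlier results of these data known, such contrasts with all genes are descriptions. In TDE-treated against NE-treated BMDCs, Hmox1, Gsr and Sod2 were higher (6.73% of all tested genes) and Srxn1 was lower (7.21%), with a median of 0.131 for the 10 genes and -0.0236 for all. The comparisons share the TDE-treated libraries and do not count as separate evidence. Without CTR replicate 1, Hmox1, Slc7a11, Gsr and Sod2 were higher and Gclc and Srxn1 were lower than in CTR, when 16.4% of 15301 tested genes were higher and 18% lower. The median of the 10 genes was then 0.269, beside -0.0214 for all genes.

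**Figure D4:**
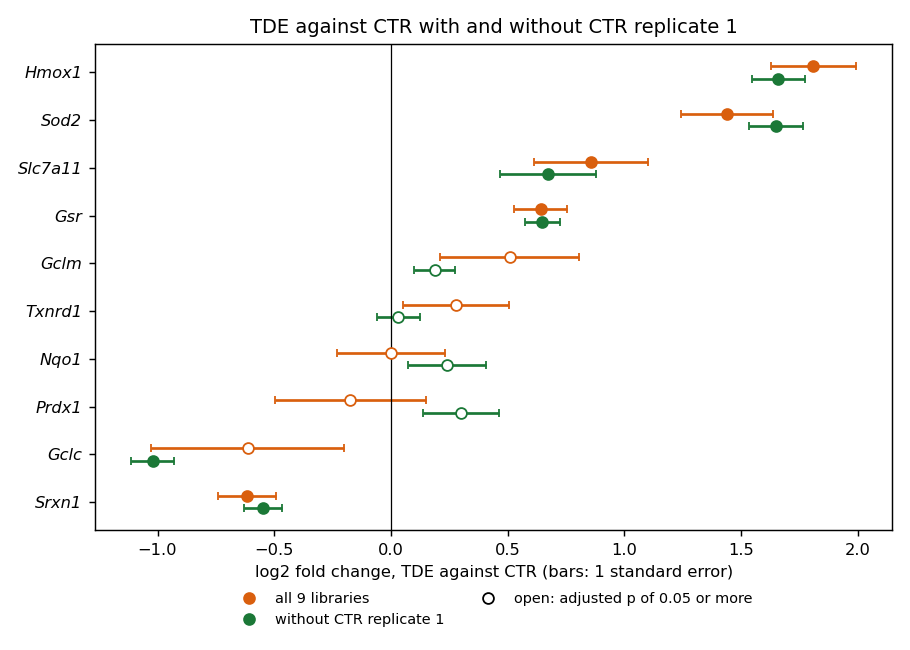
Log2 fold changes of the 10 genes in TDE-treated against CTR BMDCs (horizontal axis) with bars of 1 SE, from all 9 libraries and without CTR replicate 1, where filled points passed the adjusted p threshold of 0.05. Gclc moves from an open point at -0.61 to a filled point at -1.02, Prdx1 crosses 0, and the 5 genes called with all libraries stay filled on their side.

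Treatment with exosomes of normal cells left no called difference in the 10 genes. In NE-treated against CTR BMDCs, which share the CTR libraries with the comparison above, edgeR called 0% of the 15028 genes at an adjusted p under 0.05. At an unadjusted p under 0.05 it listed 487 genes, and DESeq2 and limma voom called 3 and 18 genes, with 0 of the 10 genes among any of these. With all libraries, the largest differences of the 10 genes were those of Gclc (log2 fold change 0.51, SE 0.411, edgeR adjusted p = 0.659), Gclm (0.41, SE 0.297, adjusted p = 0.659) and Slc7a11 (0.40, SE 0.243, adjusted p = 0.659), and CTR replicate 1 was the lowest CTR library for all of them. Left out, that library took these differences down to 0.11 for Gclc (SE 0.0911), 0.10 for Gclm (SE 0.0873) and 0.22 for Slc7a11 (SE 0.202), each with an edgeR adjusted p of 1. Hmox1 differed by 0.16 (SE 0.178, adjusted p = 0.671) with all libraries and by 0.01 (SE 0.109) without CTR replicate 1. The other genes then differed by 0.20 (Prdx1), 0.13 (Srxn1), 0.11 (Txnrd1), 0.09 (Nqo1), 0.04 (Gsr) and 0.00 (Sod2) on the log2 scale, with none called.

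Levels can be set beside each other between genes only per length, as TPM (reads per base of gene, scaled to the same sum in every library) from the deposited gene lengths. In CTR BMDCs the order of mean TPM was Prdx1 (457), Hmox1 (243), Gsr (131), Gclm (112), Txnrd1 (76), Sod2 (55.9), Srxn1 (52.1), Slc7a11 (15.1), Gclc (14.3) and Nqo1 (5.08), and only Prdx1 and Hmox1, and Srxn1 and Slc7a11, were neighbours without overlap between libraries. In CTR replicates 2 and 3 alone, Hmox1 (314) also lay apart from Gsr (159), Gclm (153) from Txnrd1 (101), Txnrd1 from Sod2 (62.6), and Slc7a11 (19.7) from Nqo1 (5.61), and Gclc (20.2) stood above Slc7a11 with overlap. The TDE-treated order was Hmox1 (936), Prdx1 (532), Gsr (235), Sod2 (186), Gclm (164), Txnrd1 (97.7), Srxn1 (39.8), Slc7a11 (29.3), Gclc (9.41) and Nqo1 (6.27), with no overlap between any neighbours. Hmox1 thus stood above Prdx1 in TDE-treated BMDCs only, and Sod2 stood above Gclm and Txnrd1. In NE-treated BMDCs, Prdx1 (513) and Hmox1 (310) led as in CTR, and Sod2 (61.4) stood below Srxn1 (66.6). These orders between genes rest on the deposited lengths. For Gclm (1002 bases), Txnrd1 (3622) and Sod2 (5861) these are far below the merged exon bases in GENCODE vM21 (6291, 7086 and 10008). With other lengths the places of these genes could differ.

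The pathway around the 10 genes was described with written lists that leave the 10 genes out, and their counts stand beside the shares of all tested genes given above. Of 8 regulators of NRF2, 1 rose and none fell against CTR. Maff, a small MAF partner, rose from 5.149 to 13.58 CPM (log2 fold change 1.40, SE 0.227, edgeR adjusted p = 0.00541), and by 1.27 without CTR replicate 1 (adjusted p = 0.00144). Nfe2l2 itself, with mean levels of 326.2 CPM in CTR, 368 CPM in NE-treated and 245.5 CPM in TDE-treated libraries, had a log2 fold change of -0.41 (SE 0.16, adjusted p = 0.112) against CTR. It fell by 0.58 against NE (SE 0.16, adjusted p = 0.0451) and by 0.56 against CTR without CTR replicate 1 (SE 0.0781, adjusted p = 0.000663). Keap1 (0.04, adjusted p = 0.842), its ligase partner Cul3 (0.22, adjusted p = 0.321), the repressor Bach1 (0.17, adjusted p = 0.769), the MAF genes Mafg (0.18, adjusted p = 0.279) and Mafk (0.16, adjusted p = 0.343), and the autophagy receptor Sqstm1 (-0.06, adjusted p = 0.794) did not pass the test against CTR in edgeR. None of these 6 passed without CTR replicate 1 either, when Bach1 turned to -0.23 (adjusted p = 0.196). RNA levels do not give the amount or activity of NRF2 protein.

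Among 19 other NRF2-linked enzymes and transporters, 1 rose and 2 fell against CTR, with a median log2 fold change of -0.213. The organic anion exporter Abcc4 rose (1.31, SE 0.3, edgeR adjusted p = 0.0211), and the quinone reductase Nqo2 (-0.92, SE 0.132, adjusted p = 0.00307) and the epoxide hydrolase Ephx1 (-0.82, SE 0.119, adjusted p = 0.00345) fell. With CTR replicate 1 left out, 7 rose and 4 fell, with a median of 0.0281, and the changes were 1.01 for Abcc4, -0.82 for Nqo2 and -0.78 for Ephx1. Of the glutathione genes, 20 of 23 were tested (Gpx7, Gpx8 and Gsta4 had at most 11 reads in any library), none rose and 1 fell, with a median of -0.286. That gene was the glutathione transferase Gsto1 (-0.74, SE 0.149, adjusted p = 0.0121). There were 3 that rose and 2 that fell, with a median of 0.0573, when CTR replicate 1 was left out, with Gsto1 at -0.67.

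Of 16 thioredoxin and peroxiredoxin genes, none rose and 2 fell against CTR, with a median of -0.305. They were Msra, a methionine sulfoxide reductase (-1.21, SE 0.171, edgeR adjusted p = 0.00299), and the sestrin gene Sesn1 (-0.76, SE 0.139, adjusted p = 0.00853). Without CTR replicate 1, 4 rose and 3 fell, the median was 0.112, and Msra was at -1.13 and Sesn1 at -0.89. Of 4 genes for superoxide and peroxide removal, only Sod3, extracellular superoxide dismutase, passed the test (-1.32, SE 0.307, adjusted p = 0.0225), with means of 2.884 CPM in CTR and 1.152 CPM in TDE-treated libraries. It was named after its values were seen, because it was the only call. The median of the 4 was -1.13, and -0.247 without CTR replicate 1, when 2 fell and Sod3 was at -1.32.

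Of 6 NADPH oxidase genes, Cybb, the catalytic subunit gp91phox (0.74, SE 0.193, edgeR adjusted p = 0.0341), and Rac2, the GTPase that activates the complex (0.93, SE 0.232, adjusted p = 0.0293), rose against CTR, and none fell. Both also passed without CTR replicate 1 (0.59, adjusted p = 0.0088, and 1.25, adjusted p = 1.71e-05), whereas against NE only Rac2 did (1.25, SE 0.233, adjusted p = 0.00958). The deposited KEGG annotation places 133 entries under glutathione metabolism, of which 46 were tested and 3 are among the 10 genes. Of the 46, 2 rose, Gsr and the glutathione transferase Gstm4 (1.07, SE 0.189, adjusted p = 0.00729), and 4 fell, among them Anpep, an aminopeptidase (-1.99, SE 0.133, adjusted p = 0.000103), Srm, spermidine synthase (-1.85, SE 0.381, adjusted p = 0.0136), and Gsto1. The fourth, Nat8f4 (-1.23, adjusted p = 0.0228), lay under 5 CPM and was named after its values were seen. Their median was -0.152, and 0.0247 without CTR replicate 1, when 10 rose and 8 fell. Gstm4 was then at 1.07, Anpep at -2.08, Srm at -1.32 and Nat8f4 at -1.08, and all of them passed the test.

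**Figure D5:**
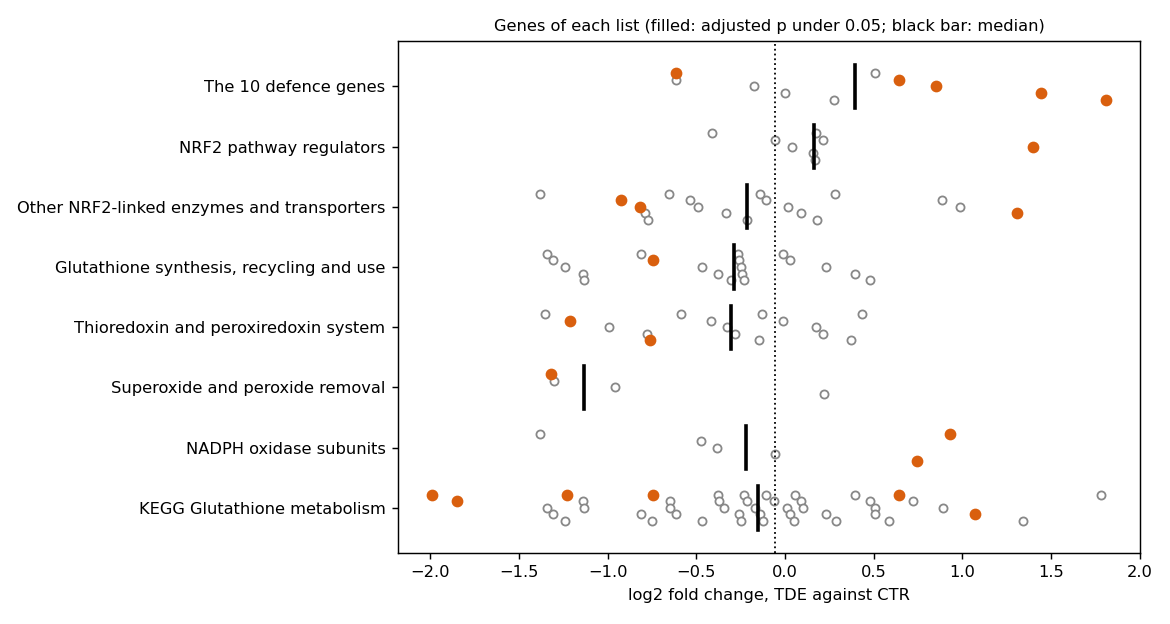
Log2 fold change of each gene in TDE-treated against CTR BMDCs (horizontal axis) for the 10 genes and for each pathway list, with filled points for an adjusted p under 0.05, a black bar for the median of the list and a dotted line for the median of all tested genes at -0.055. Filled points lie on both sides of 0 in the list of the 10 genes, in the other NRF2-linked genes and in the KEGG map.

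Against NE, the counts of genes that rose and fell were 1 and 1 of the 8 regulators, 0 and 2 of the 19 NRF2-linked genes, 1 and 1 of the 20 glutathione genes and 1 and 2 of the 16 thioredoxin genes. They were 0 and 1 of the 4 genes for superoxide and peroxide removal, 1 and 0 of the 6 NADPH oxidase genes and 5 and 2 of the 46 KEGG genes. These lists were written with earlier results of these data known, and their counts are descriptions.

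Markers of other cell types moved with the groups, and their part in the results on the 10 genes was not tested. The summed level of 10 macrophage markers was 4210 to 11100 CPM in CTR, 4500 to 5300 CPM in NE-treated and 3500 to 3740 CPM in TDE-treated libraries, and 1 rose and 3 fell against CTR. Adgre1 (F4/80) lay at 206 to 480 CPM in CTR and 2110 to 2310 CPM in TDE-treated libraries, while Apoe lay at 2000 to 7900 CPM and 181 to 195 CPM. The 10 conventional DC markers, of which 9 were tested, summed to 4760 to 14500 CPM in CTR, 4540 to 5730 CPM in NE-treated and 2550 to 2720 CPM in TDE-treated libraries, and 0 rose and 5 fell. Neutrophil markers (10) summed to 7130 to 28800, 7510 to 10800 and 3080 to 3380 CPM, and 0 rose and 8 fell.

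Eosinophil markers (6) summed to 419 to 1370 CPM in CTR, 442 to 505 CPM in NE-treated and 99.1 to 123 CPM in TDE-treated libraries, and 6 fell. Mast cell and basophil markers (3 of 6 tested, with Mcpt4 and Tpsab1 at 0 in all libraries) summed to 64.1 to 222, 71.1 to 99 and 12.5 to 13.9 CPM, and 3 fell. Fibroblast markers (7 of 10 tested) summed to 9.13 to 9.59, 9.39 to 10 and 18.1 to 22.3 CPM, and 3 rose. Epithelial markers (2 of 6 tested, 1 of which fell) summed to 8.53 to 10.3, 11.2 to 13 and 4.8 to 7.16 CPM, and erythroid markers (1 of 7 tested, with 0 calls) to 0.807 to 11.3, 0.796 to 1.9 and 0.222 to 1.67 CPM. CTR replicate 1 held the highest sum of the CTR libraries in every list except the fibroblast one. The larger sums rest mostly on a few abundant transcripts, such as Cd74 (8680 CPM in CTR replicate 1), Apoe (7900 CPM) and S100a9 (13200 CPM). Itgax, Flt3, Zbtb46, Adgre1 (206 CPM), Mertk (33.7 CPM), Mrc1 and Cxcr2 were instead lowest in CTR replicate 1 among the CTR libraries, so a sum does not describe every marker. Without it, against CTR, 8 DC markers, 8 macrophage markers and 10 neutrophil markers fell, while 2 macrophage markers rose.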

How the data were processed

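All 9 libraries of BMDC RNA were used, 3 per group as the library titles name them. The authors extracted RNA with TRIzol, sequenced it on an Illumina instrument and, per the submitters' processing notes, used TopHat2 2.1.1, DESeq2 1.24.0 and R 3.3.1. The counting program, genome build and annotation are not given in the sources used here. The authors deposited estimated counts (expected counts) of reads per gene without normalization, with group means that were not used. Members and lists were chosen with earlier results of these data known.

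Estimated counts were rounded, filtered with filterByExpr, scaled by TMM and fitted with 1 mean per group to all 9 libraries with edgeR 4.0.16 (quasi-likelihood test, R 4.3.3, limma 3.58.1). Benjamini-Hochberg adjustment ran over all tested genes, and an adjusted p under 0.05 was called. An SE is the log2 fold change divided by the square root of F. TPM used unrounded counts and the deposited gene lengths.

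All 10 members and all NRF2 regulators were named, and from each other list up to 3 genes with the highest and 3 with the lowest log2 fold change against CTR among those with an adjusted p under 0.05 and at least 5 CPM in a group. The test was repeated with DESeq2 1.42.0, with limma voom and sample weights, with scaling by library totals or by median-ratio factors, with other filters, on only 2 groups, with a limit on the fold change, with a replicate block, and with each library in turn left out. The lists and the order of CTR levels without CTR replicate 1 were added after the data were seen. Scripts were tested on simulated data. Python 3.11.15, pandas 2.3.3, numpy 2.4.6 and matplotlib 3.10.9 were used for tables and plots.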

Additional observations from a re-analysis of the deposited data

How the results depend on the processing

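Hmox1 and Sod2 in both comparisons of TDE-treated BMDCs, and Gsr against CTR, kept their direction and their call under all 17 alternatives with no limit on the fold change. The highest edgeR adjusted p among these was 0.048 for Gsr, against 0.00956 for Hmox1 and 0.0211 for Sod2 in the comparison with CTR. With an absolute log2 fold change of 1 or more required as well, only Hmox1 and Sod2 stayed called higher. Against CTR, the count of the 10 genes called lower (1) was 0 with no filter and in the fit to only 2 groups, 2 with voom, 0 with that limit and 0 to 2 with a library left out. The count called higher (4) was 3 with library totals, no filter, 2 groups or the replicate block, 5 with voom and 2 with that limit. It was 3 or 4 with a library left out. Against NE, the count lower (1) was 2 with 2 groups, 2 with voom, 0 with the limit and 0 to 2 with a library left out. The count higher (3) was 2 with library totals, no filter, the replicate block or the limit, 4 with 2 groups and 5 with voom. It was 2 or 3 with a library left out. Each count of the 10 genes is to be read beside that of all genes under the same setting. Over all genes against CTR (1137 higher, 1404 lower), library totals gave 808 and 1212, and no filter 795 and 945 of 28991 genes. The fit to 2 groups gave 567 and 585, voom 3878 and 4008 of 15028 genes, and the limit 642 and 941. Leaving out a library gave 535 to 2503 higher and 568 to 2760 lower. Against NE (1011 and 1084), library totals gave 737 and 1051, and no filter 723 and 711. The fit to 2 groups gave 2991 and 3081, voom 4063 and 4248, and the limit 611 and 696. Leaving out a library gave 502 to 2934 higher and 468 to 3289 lower. For NE-treated against CTR BMDCs (0), DESeq2 called 3 lower, voom 2 higher and 16 lower, and leaving out a library gave 0 to 3 lower.

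With the replicate block, 614 genes were higher and 671 lower against CTR, and 586 and 589 against NE. Slc7a11 lost its call against CTR (log2 fold change 0.86, adjusted p = 0.11) and Gsr its call against NE (0.61, adjusted p = 0.0569), and no other call of the 10 genes changed with the block. Nothing states that the replicate numbers pair the libraries. Same-numbered libraries had mean correlations of deviations of -0.024 (TDE and CTR), -0.0575 (TDE and NE) and -0.3 (NE and CTR). The single pairs of NE and CTR were at -0.49, 0.285 and -0.694. With 3 libraries per group these values cannot tell whether cultures were shared, so the block rests on numbers alone.

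Signs turned only for changes that were not called. Against CTR, Nqo1 was -0.00355 with median-ratio factors, -0.00225 with at least 10 counts in every library, -0.0231 with 2 groups and -0.128 to 0.24 with a library left out, and Prdx1 was 0.254 with voom and -0.383 to 0.299 with a library left out. Against NE, leaving out a library gave -0.12 to 0.0112 for Txnrd1 and -0.0146 to 0.309 for Prdx1. For NE-treated against CTR BMDCs, voom gave -0.104 for Hmox1 and -0.0233 for Gsr, and library totals gave 0.0188 for Nqo1. Leaving out a library gave -0.284 to 0.0929 for Nqo1, -0.0348 to 0.0732 for Gsr, -0.49 to 0.2 for Prdx1 and -0.344 to 0.00435 for Sod2 there. Library totals moved the median log2 fold change of all genes in NE-treated against CTR BMDCs from 0.00478 to 0.124.

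Without CTR replicate 1, the lists gave 1 regulator higher and 1 lower, 7 NRF2-linked genes higher and 4 lower, and 3 glutathione genes higher and 2 lower. They gave 4 thioredoxin genes higher and 3 lower, and 0 superoxide and peroxide genes higher and 2 lower. The NADPH oxidase genes gave 2 higher and 0 lower, and the KEGG glutathione genes 10 higher and 8 lower. The cause of these shifts was not tested. A KEGG ferroptosis list was not run, since the annotation used here lists 0 genes for it.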
